A study of Saccharomyces cerevisiae with 15 samples.

Results

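The genes described here encode the proteasome of budding yeast, *Saccharomyces cerevisiae*, together with part of the machinery that builds and regulates it. They were taken by symbol: the RPN, RPT, PRE and PUP genes, plus SCL1, UMP1, ECM29, BLM10, NAS2, NAS6 and ADD66. The rule found 40 genes among 5449 genes measured, each read by 1 probe set, and it used no measured value. They comprise 7 genes of the alpha ring, 7 of the beta ring, 10 of the base, 8 of the lid, 5 assembly factors, the cap BLM10, the adaptor ECM29 and the transcription factor RPN4.

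The cells were of strain YPH499 and carried the plasmid pEG(KG), from which a human protein is made under the galactose-inducible GAL1 promoter. The groups were IRAK4, IRAK4(KD), a form of IRAK4 without catalytic activity, IRAK1, IRAK2 and Control, the last carrying the plasmid without an insert. The IRAK proteins are a family of kinases and related proteins that act in human innate immune signalling. Cultures of all groups, Control included, grew in raffinose for 18 h at 30 °C, were diluted to an optical density of 0.3 in galactose medium and were sampled after 6 h. Each group had 3 biological replicates, each on its own Affymetrix array, giving 15 arrays. The amount of each human protein was not measured on these arrays, where 0 probe sets are annotated to a human IRAK gene, so differences between kinases in dose and in action cannot be told apart. RNA came from whole cultures, so a change in the mix of cells and a change in RNA per cell cannot be told apart.

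All values are log2 signals as deposited, and a difference of 1 is a doubling. Array medians lay between 8.72 and 8.87. GAL1, the galactokinase gene of the induced pathway, averaged 13.40 ± 0.03 in Control (SD, n = 3) and was not called in any group against Control. Its IRAK2 arrays, at 13.34, 13.20 and 13.14, nevertheless all lay below the Control arrays, the lowest of which read 13.37. Replicates of a group correlated at 0.993 or more across genes, apart from IRAK1, where the lowest correlation was 0.968 and involved replicate 1. On that array the 40 proteasome genes lay between -0.39 and 0.40 of the mean of the other IRAK1 arrays, with a median of 0.09 against 0.05 for all genes.

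The proteasome degrades proteins that have been tagged with ubiquitin. A barrel-shaped core, built of alpha and beta rings, holds the proteolytic sites on the inner face of the beta rings, and a regulatory particle of base and lid receives, unfolds and feeds in the substrate. In yeast most proteasome genes share a promoter element that is bound by Rpn4, an activator which the proteasome itself degrades quickly, so that loss of proteasome capacity raises transcription of the subunits.

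Against Control, proteasome genes rose in all 4 kinase groups, in numbers from 8 to 35. The 4 comparisons share the same 3 Control arrays. With IRAK1 35 of 40 rose and with IRAK4 29 rose and 1 fell. With IRAK4(KD) 15 rose and with IRAK2 8 rose. Each test was limma's moderated test fitted over all 15 arrays, with Benjamini-Hochberg adjustment over 5449 genes, and genes with an adjusted p below 0.05 are those counted. The adjustment is made within each comparison, so the counts also depend on how many genes changed in it. At an unadjusted p below 0.05 by limma, 36 were higher with IRAK1, 31 with IRAK4, 25 with IRAK4(KD) and 17 with IRAK2. Over all 5449 genes those unadjusted counts were 1792, 1784, 1252 and 813.

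The IRAK1 count stood beside a background of 30.6% of all genes called higher and 28.2% called lower. The median difference of the 40 genes was 0.39, against 0.02 over all genes. The genes ranged from -0.04 for ADD66 to 1.06 for RPN4. In 35 of the 40 the 3 IRAK1 arrays all lay above the 3 Control arrays, as they did in 31.8% of all genes. By limma 0 of the 40 fell, and 0 were lower at an unadjusted p below 0.05. Within the 6 arrays of IRAK1 and Control alone 28 rose, and 27 rose when the replicate numbers were entered as a block. The calls lost under that block were PRE9, PRE7, RPT3, RPN13, RPN7, RPN8, RPN12 and UMP1. The labels do not say whether the numbers pair these arrays. The count of 35 and the p-values given for IRAK1 come from the fit without a block. Without IRAK1 replicate 1 the count was 34.

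For IRAK4 the background was 28.2% of all genes higher and 16.4% lower. The median of the 40 genes was 0.33, against 0.08 over all genes, and the genes ranged from -0.33 for ECM29, the only member that fell, to 0.64 for NAS2. The IRAK4 arrays all lay above Control in 33 of the 40 and all below in 2, against 37.7% and 24.1% of all genes. At an unadjusted p below 0.05, 2 were lower by limma, ECM29 and RPN8 (-0.18). Without IRAK4 replicate 2 or without IRAK1 replicate 1, 2 of the 40 fell in place of 1.

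For IRAK4(KD) the background was 11.7% higher and 6.00% lower. The median of the 40 genes was 0.22, against 0.07 over all genes. The genes ranged from -0.14 for BLM10 to 0.54 for RPN14. The arrays of the inactive form all lay above Control in 30 of the 40, against 32.7% of all genes. By limma 0 of the 40 fell, and 0 were lower at an unadjusted p below 0.05. The count of 15 depended on single arrays: leaving out Control replicate 3 gave 5, leaving out Control replicate 2 or either of IRAK4(KD) replicates 1 and 2 gave 8, and leaving out IRAK1 replicate 1 gave 23. Over all genes the count higher moved likewise, from 640 to 188 without Control replicate 3 and to 1212 without IRAK1 replicate 1.

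For IRAK2 the background was 5.82% higher and 3.38% lower, the smallest of the 4 comparisons with Control. The median of the 40 genes was 0.17, against 0.01 over all genes, with a range from -0.18 for BLM10 to 0.39 for RPN14. The IRAK2 arrays all lay above Control in 21 of the 40 and all below in 2, against 23.2% and 19.6% of all genes. By limma 0 of the 40 fell, and 2 were lower at an unadjusted p below 0.05. None of the 8 calls held under every alternative: 0 rose without Control replicate 2 or without IRAK2 replicate 3, 1 without Control replicate 3 or IRAK2 replicate 2, and 3 without Control replicate 1, IRAK2 replicate 1 or IRAK4 replicate 1. The count was 4 without IRAK4 replicate 2 and 5 without IRAK4(KD) replicate 1 or 2. Over all genes 317 were higher in the main fit, 128 without Control replicate 2 and 104 without IRAK2 replicate 3.

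**Figure D1:**
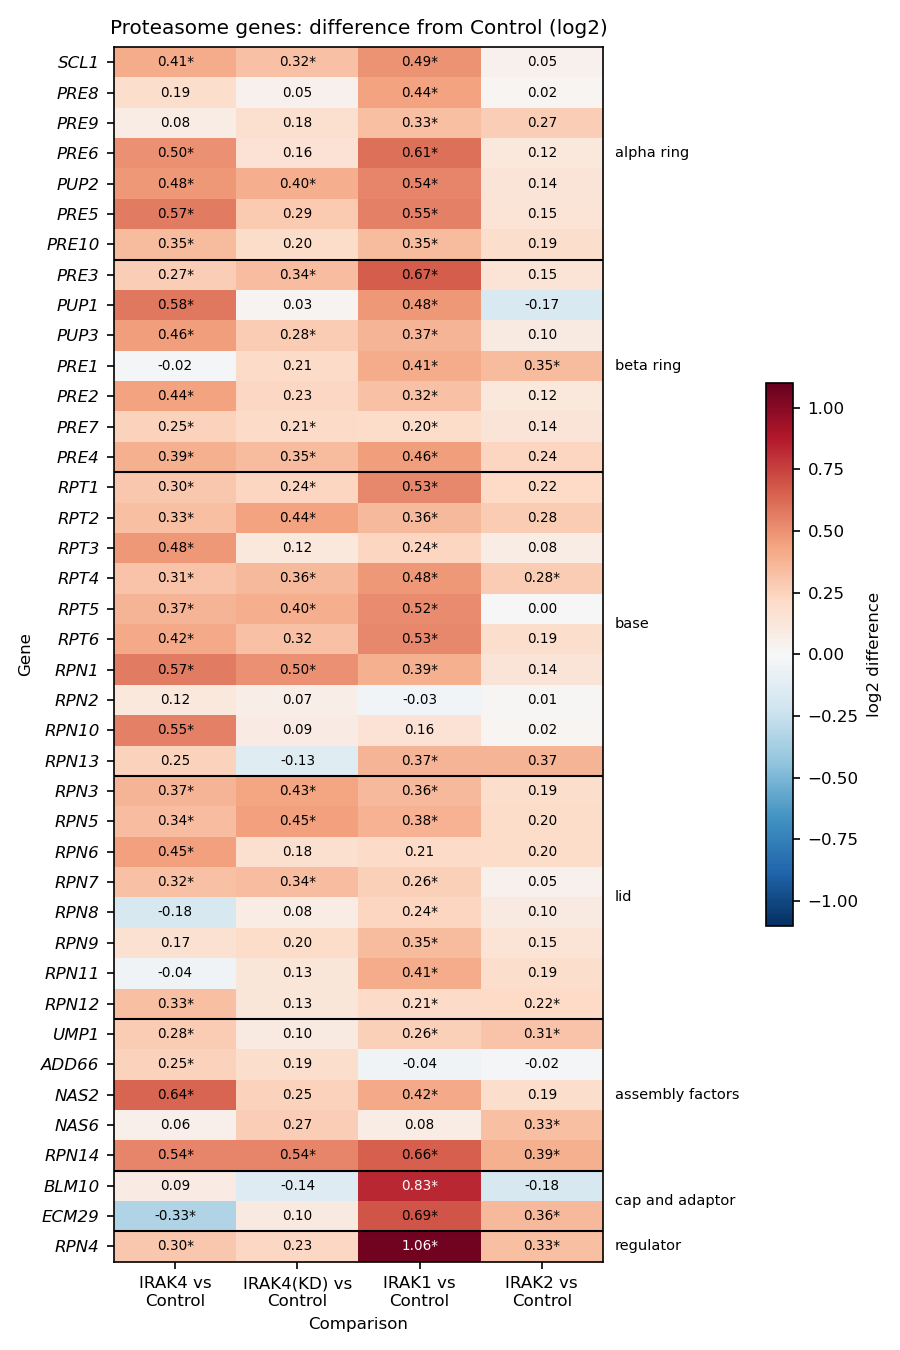
Log2 difference from Control of the 40 proteasome genes (rows, ordered by role) in the 4 kinase groups (columns, 3 arrays each against 3 Control arrays), with colour giving the difference and an asterisk marking an adjusted p below 0.05. Asterisks fill most of the IRAK1 column (35 of 40) and the IRAK4 column (29 higher, 1 lower), while BLM10, ECM29 and RPN4 are the most strongly coloured cells under IRAK1.

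The shift was seen on each array of a group. Set against the Control mean, the median of the 40 genes was 0.48, 0.41 and 0.34 on the IRAK1 arrays, where the median over all genes was 0.07, 0.03 and -0.03. On the IRAK4 arrays it was 0.31, 0.26 and 0.45, with 0.05, 0.03 and 0.16 over all genes. It was 0.17, 0.27 and 0.21 on the IRAK4(KD) arrays, with 0.06, 0.10 and 0.06 over all genes. On each of the 3 IRAK2 arrays it was 0.16, with 0.01, 0.02 and 0.01 over all genes. The Control arrays themselves stood at 0.05, 0.01 and -0.05. Within IRAK4, IRAK4(KD) and IRAK1, the array with the highest proteasome median was also the one with the highest median over all genes. These arrays were IRAK4 replicate 3, IRAK4(KD) replicate 2 and IRAK1 replicate 1, and the part of that in the result was not tested. After each array was centred on its own median, the IRAK4 difference had a median of 0.26 over the 40 genes and 2 of them fell. The centred medians were 0.18 with IRAK4(KD), 0.35 with IRAK1 and 0.16 with IRAK2. Control had the lowest mean of the 5 groups for 31 of the 40 genes and the highest for 0, whereas IRAK1 had the highest for 19, IRAK4 for 14, IRAK4(KD) for 4 and IRAK2 for 3.

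**Figure D2:**
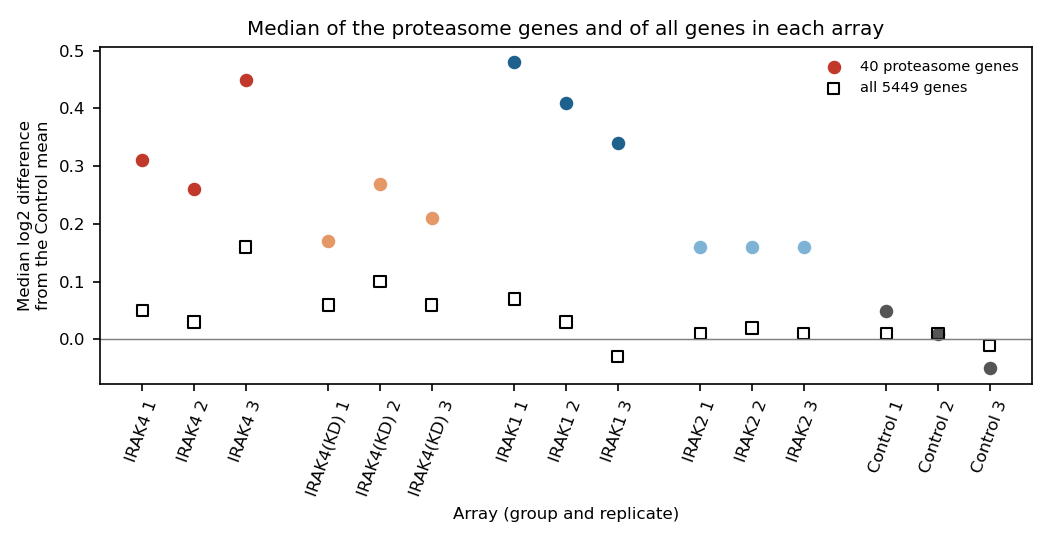
Median log2 difference from the Control mean on each of the 15 arrays, over the 40 proteasome genes and over all 5449 genes. The 3 IRAK1 arrays lie between 0.34 and 0.48 for the proteasome genes, the 3 IRAK2 arrays all lie at 0.16, and the medians over all genes stay between -0.03 and 0.16.

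RPN4 (YDL020C), the activator of the subunit genes, read 11.04, 11.34 and 11.15 with IRAK1, against 10.08, 10.18 and 10.11 in Control. It read 10.31, 10.42 and 10.54 with IRAK4, 10.42, 10.18 and 10.46 with IRAK4(KD), and 10.47, 10.45 and 10.42 with IRAK2. The IRAK1 arrays stood well above every other array, and the other kinase groups overlapped one another just above Control. The IRAK1 difference was 1.06 ± 0.10 (SE), a 2.08-fold increase (limma, adjusted p = 5.44e-07), the largest of the 40 genes in that comparison. The IRAK4 difference was 0.30 ± 0.10 (limma, adjusted p = 0.0185), and its call ended after median centring (0.23) and without Control replicate 1 (0.29), Control replicate 3 (0.30) or IRAK4 replicate 3 (0.25). IRAK2 differed by 0.33 ± 0.10 (limma, adjusted p = 0.046), a call that also ended without any 1 of the Control or IRAK2 arrays and in fits that left out IRAK4 replicate 1, IRAK4 replicate 2 or IRAK4(KD) replicate 1. IRAK4(KD) differed by 0.23 ± 0.10 (limma, adjusted p = 0.102) and was not called.

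For the role groups that follow, the shares of all genes called higher were 30.6% with IRAK1, 28.2% with IRAK4, 11.7% with IRAK4(KD) and 5.82% with IRAK2. In a ring, the base, the lid or the assembly factors, a count of 1 gene cannot be told apart from these shares. The alpha ring forms the gated entrance of the core. All 7 of its genes rose with IRAK1, with a median of 0.49, and 5 of 7 rose with IRAK4, with a median of 0.41. With IRAK4(KD) 2 rose, SCL1 (0.32) and PUP2, and the median was 0.20, with PRE8 lowest at 0.05. The SCL1 call ended without Control replicate 2 or 3 or IRAK4(KD) replicate 1. With IRAK2 the median was 0.14 and 0 of 7 passed limma's test in either direction, with values from 0.02 for PRE8 to 0.27 for PRE9. PRE6 differed by 0.61 ± 0.11 with IRAK1 (limma, adjusted p = 0.000229) and PRE5 by 0.57 ± 0.11 with IRAK4 (limma, adjusted p = 0.000674), the largest alpha differences of those groups. PRE8 and PRE9 were called with IRAK1, at 0.44 and 0.33, and were not called with IRAK4, where their differences were 0.19 and 0.08. For PUP2 the arrays read 10.87, 11.10 and 10.75 with IRAK1, 10.76, 10.67 and 11.12 with IRAK4, 10.82, 10.74 and 10.74 with IRAK4(KD), 10.54, 10.52 and 10.46 with IRAK2, and 10.45, 10.33 and 10.31 in Control. Every kinase array of PUP2 thus lay above every Control array. Its IRAK4(KD) difference of 0.40 ± 0.11 (limma, adjusted p = 0.026) lost its call without Control replicate 2, without Control replicate 3, or without any 1 of the IRAK4(KD) arrays.

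The beta ring carries the proteolytic sites. All 7 of its genes rose with IRAK1 and 6 of 7 with IRAK4, with medians of 0.41 and 0.39. With IRAK4(KD) 4 rose, with a median of 0.23 and a highest value of 0.35 for PRE4, and with IRAK2 1 rose, PRE1, with a median of 0.14. PRE3 (YJL001W), which bears the caspase-like site, read 11.37, 11.41 and 11.23 with IRAK1, against 10.84, 10.65 and 10.51 in Control. The groups did not overlap, and the difference was 0.67 ± 0.10, or 1.59-fold (limma, adjusted p = 4.74e-05). PUP1 (YOR157C), which bears the trypsin-like site, followed another order. It read 10.78, 10.73 and 10.64 with IRAK1 and 10.74, 10.82 and 10.89 with IRAK4, against 10.19, 10.29 and 10.22 in Control. With IRAK4(KD) it read 10.18, 10.37 and 10.24, within and just outside the Control range, and with IRAK2 10.05, 10.13 and 10.01, below it. PUP1 rose with IRAK4 by 0.58 ± 0.08 (limma, adjusted p = 4.22e-05) and with IRAK1 by 0.48 ± 0.08 (limma, adjusted p = 0.000108), while IRAK4(KD) differed by 0.03 and IRAK2 by -0.17, neither of them called. PRE2, with the chymotrypsin-like site, rose with IRAK4 (0.44) and IRAK1 (0.32) and was not called with IRAK4(KD) (0.23) or IRAK2 (0.12). PRE1 rose with IRAK1 (0.41) and IRAK2 (0.35), although the IRAK2 call ended without Control replicate 2, Control replicate 3, IRAK2 replicate 2 or IRAK2 replicate 3. Its IRAK4 difference was -0.02, the only beta gene without a call there. PRE7 had the smallest beta difference with IRAK1, 0.20, and its call ended after quantile normalization and in the fit of the 6 arrays alone.

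**Figure D3:**
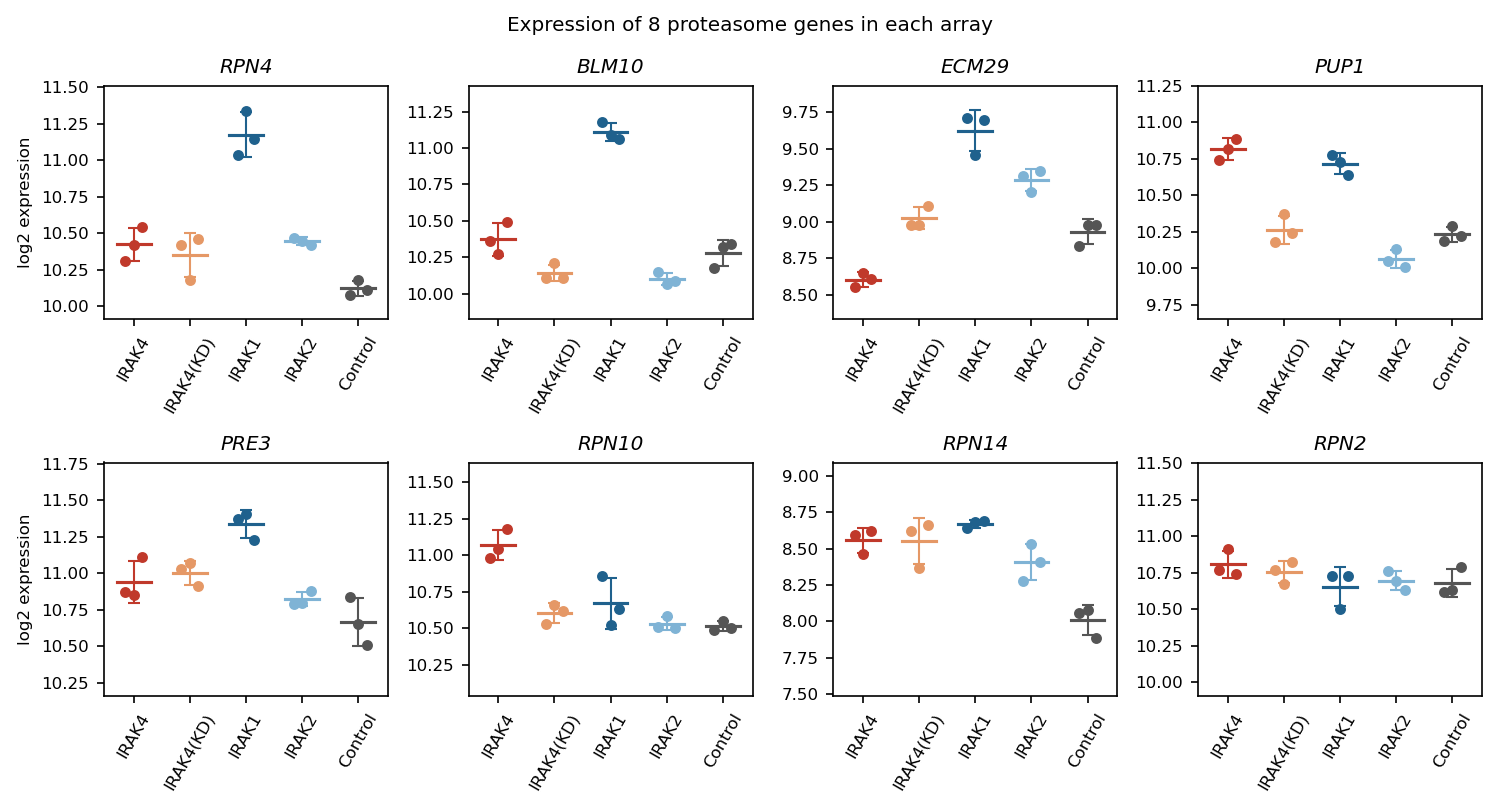
Log2 signal of 8 proteasome genes on the 15 arrays, grouped as IRAK4, IRAK4(KD), IRAK1, IRAK2 and Control. Points are arrays, bars group means and error bars the SD of 3 arrays. RPN4, BLM10 and ECM29 are highest with IRAK1, PUP1 is high with IRAK4 and IRAK1, RPN10 is highest with IRAK4, and RPN2 differs little between groups.

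The base holds the Rpt ATPases, which unfold the substrate, and the large scaffold and receptor subunits. In it 8 of 10 genes rose with IRAK1 and 8 of 10 with IRAK4, with medians of 0.38 and 0.35. With IRAK4(KD) 5 rose, with a median of 0.28, and with IRAK2 1 rose, with a median of 0.17. All 6 ATPase genes, RPT1 to RPT6, were called higher with both IRAK1 and IRAK4, RPT1 and RPT6 standing highest with IRAK1 at 0.53 each. The IRAK4 calls of RPT2 and RPT6 ended without Control replicate 3 or IRAK4 replicate 3, and the IRAK1 call of RPT3 without Control replicate 1 or 2. RPT4 was called in all 4 groups, at 0.48 with IRAK1, 0.31 with IRAK4, 0.36 with IRAK4(KD) and 0.28 with IRAK2. The last of these calls ended without any 1 of the Control or IRAK2 arrays, without IRAK4 replicate 1 and without IRAK4(KD) replicate 3, and the IRAK4(KD) call ended without Control replicate 3. RPN10 (YHR200W), a ubiquitin receptor, had another pattern. It read 10.98, 11.04 and 11.18 with IRAK4, 10.53, 10.66 and 10.62 with IRAK4(KD), 10.86, 10.52 and 10.63 with IRAK1, 10.51, 10.58 and 10.50 with IRAK2, and 10.49, 10.55 and 10.50 in Control. The IRAK4 arrays lay above all 12 others. RPN10 rose with IRAK4 by 0.55 ± 0.09, or 1.47-fold (limma, adjusted p = 0.00022), and was not called against Control in the other groups, whose differences were 0.09 with IRAK4(KD), 0.16 with IRAK1 and 0.02 with IRAK2. RPN13, another ubiquitin receptor, was called with IRAK1, at 0.37, and not with IRAK4 (0.25), IRAK4(KD) (-0.13) or IRAK2 (0.37). The IRAK1 and IRAK2 differences were thus the same size, so the calls do not set these groups apart. The IRAK2 arrays, at 10.62, 10.60 and 10.68, all lay above Control, at 10.39, 10.26 and 10.13. IRAK1 replicate 1, at 10.37, lay within the Control range. The IRAK1 call of RPN13 ended in the fit of the 6 arrays alone, without Control replicate 3 and without IRAK1 replicate 2. RPN1, a scaffold that also binds ubiquitin, rose with IRAK4 (0.57), IRAK4(KD) (0.50) and IRAK1 (0.39), though the IRAK4(KD) call ended without Control replicate 3. RPN2, the other scaffold, was the only one of the 40 genes with no call in any of the 7 comparisons made. Its differences from Control lay between -0.03 and 0.12. RPT5 had the lowest base difference with IRAK2, at 0.00.

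The lid removes ubiquitin from the substrate. With IRAK1 7 of its 8 genes rose, with a median of 0.30, and with IRAK4 5 rose, with a median of 0.32. With IRAK4(KD) 3 rose, RPN3, RPN5 and RPN7, and with IRAK2 1 rose, RPN12, at 0.22. That IRAK2 call ended without any 1 of the Control, IRAK4(KD) or IRAK2 arrays, IRAK4 replicate 1, IRAK4 replicate 2 or IRAK1 replicate 2. The lowest lid difference was 0.08 with IRAK4(KD), for RPN8, and 0.05 with IRAK2, for RPN7. The deubiquitinase RPN11 and its partner RPN8 were among the lid genes called with IRAK1 and not with IRAK4. RPN11 (YFR004W) read 10.79, 10.76 and 10.69 with IRAK1, 10.25, 10.22 and 10.41 with IRAK4, and 10.36, 10.35 and 10.30 in Control. The IRAK1 arrays were apart from both other groups, which overlapped each other. Its differences from Control were 0.41 ± 0.07 with IRAK1 (limma, adjusted p = 0.000303) and -0.04 with IRAK4. RPN8 differed by 0.24 with IRAK1 and by -0.18 with IRAK4, the second not called, and the IRAK1 call ended after quantile normalization and in the fit of the 6 arrays alone. RPN6 had the largest lid difference with IRAK4, 0.45, and differed by 0.18 with IRAK4(KD), 0.21 with IRAK1 and 0.20 with IRAK2, where it was not called. RPN3 and RPN5, both structural lid subunits, were called in the same 3 groups, at 0.43 and 0.45 with IRAK4(KD), 0.37 and 0.34 with IRAK4, and 0.36 and 0.38 with IRAK1.

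The assembly factors hold subunits during construction and are not part of the finished particle. UMP1 and ADD66 act on the core, and NAS2, NAS6 and RPN14 on the base. With IRAK4 4 of the 5 rose, with IRAK1 3, with IRAK2 3 and with IRAK4(KD) 1. These were 80%, 60%, 60% and 20% of the 5 genes, against 28.2%, 30.6%, 5.82% and 11.7% of all genes. RPN14 (YGL004C) was called in all 4 groups. It read 8.59, 8.46 and 8.62 with IRAK4, 8.62, 8.37 and 8.66 with IRAK4(KD), 8.64, 8.68 and 8.69 with IRAK1, and 8.28, 8.53 and 8.41 with IRAK2, against 8.06, 8.08 and 7.89 in Control. No kinase array overlapped Control. The differences were 0.54 ± 0.09 with IRAK4, 0.54 ± 0.09 with IRAK4(KD), 0.66 ± 0.09 with IRAK1 and 0.39 ± 0.09 with IRAK2 (limma, adjusted p of 0.000385, 0.00183, 4.35e-05 and 0.0191). The IRAK2 call of RPN14 ended without Control replicate 2, Control replicate 3, IRAK2 replicate 2 or IRAK2 replicate 3. NAS2 had the largest IRAK4 difference of the 40 genes, 0.64 ± 0.11 or 1.56-fold (limma, adjusted p = 0.000479), and also rose with IRAK1 by 0.42. ADD66 was lowest with IRAK1 (-0.04) and IRAK2 (-0.02), and UMP1 with IRAK4(KD) (0.10), none of them called. NAS6 differed by 0.33 with IRAK2, 0.27 with IRAK4(KD), 0.08 with IRAK1 and 0.06 with IRAK4. Its IRAK2 value passed the test, and that call ended in 7 of the 15 fits that left out 1 array, those without Control replicate 2 or 3, IRAK4 replicate 1 or 2, IRAK4(KD) replicate 2, or IRAK2 replicate 2 or 3.

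BLM10 and ECM29 encode proteins that bind the finished core from outside, BLM10 as an alternative cap and ECM29 as an adaptor that tethers the core to the regulatory particle. Both rose with IRAK1. BLM10 (YFL007W) read 11.18, 11.09 and 11.06 with IRAK1, against 10.18, 10.32 and 10.34 in Control, a difference of 0.83 ± 0.08 or 1.78-fold (limma, adjusted p = 7.88e-07). In the other groups it stayed near or below Control, with differences of 0.09 with IRAK4, -0.14 with IRAK4(KD) and -0.18 with IRAK2, none of them called. ECM29 (YHL030W) read 8.55, 8.65 and 8.61 with IRAK4, 8.98, 8.98 and 9.11 with IRAK4(KD), 9.71, 9.46 and 9.70 with IRAK1, 9.31, 9.20 and 9.35 with IRAK2, and 8.83, 8.98 and 8.98 in Control. The IRAK4 arrays lay below Control and the IRAK1 and IRAK2 arrays above it, with IRAK4(KD) overlapping Control. ECM29 fell with IRAK4 by 0.33 ± 0.09 on the log2 scale (limma, adjusted p = 0.00706). It rose with IRAK1 by 0.69 ± 0.09 (limma, adjusted p = 1.16e-05) and with IRAK2 by 0.36 ± 0.09 (limma, adjusted p = 0.0186), the IRAK2 call ending without Control replicate 1, Control replicate 2, IRAK2 replicate 1 or IRAK2 replicate 3.

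The comparison of IRAK4 with IRAK4(KD) asks what differed between the active enzyme and its inactive form. Of the 40 genes 9 rose and 2 fell, beside a background of 19.7% of all genes higher and 15.3% lower. The counts were 22.5% and 5% of the members, so the share that rose was near the background and the share that fell was below it. The median difference was 0.07, against 0.00 over all genes. The IRAK4 arrays all lay above the IRAK4(KD) arrays in 15 of the 40 and below them in 5, against 27.3% and 25.1% of all genes. The count of 9 was 4 without IRAK4 replicate 3, IRAK4(KD) replicate 1 or IRAK4(KD) replicate 3, and 4 genes fell without IRAK1 replicate 1. The calls that held in every alternative except a fold limit of 1.5 were PUP1, RPT3, RPN10 and ECM29.

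PUP1 was higher with IRAK4 than with IRAK4(KD) by 0.55 ± 0.08, or 1.47-fold (limma, adjusted p = 9.13e-05). RPN10 was higher by 0.46 ± 0.09 (limma, adjusted p = 0.00119) and the ATPase gene RPT3 by 0.36 ± 0.08 (limma, adjusted p = 0.00401). RPT3 read 10.61, 10.66 and 10.61 with IRAK4, against 10.14, 10.27 and 10.40 with IRAK4(KD), so the groups did not overlap. ECM29 fell by 0.42 ± 0.09 on the log2 scale with IRAK4 relative to IRAK4(KD) (limma, adjusted p = 0.00173). The other calls were PRE6, RPN13, RPN6, RPN12, NAS2 and BLM10, higher with IRAK4, and RPN8, lower, and each ended without at least 1 of the IRAK4 or IRAK4(KD) arrays. RPN8, at -0.26, lost its call without IRAK4 replicate 3. The differences of PRE6 (0.33), RPN6 (0.28) and NAS2 (0.39) lost theirs without IRAK4 replicate 3, IRAK4(KD) replicate 1 or IRAK4(KD) replicate 3, that of RPN13 (0.39) without IRAK4 replicate 3 or IRAK4(KD) replicate 3. BLM10 (0.23) lost its call without IRAK4 replicate 1 or 3 or IRAK4(KD) replicate 1 or 3, and RPN12 (0.20) without replicate 1 or 2 of either group. By role, the differences ran from -0.09 for PRE9 to 0.33 for PRE6 in the alpha ring, from -0.23 for PRE1 to 0.55 for PUP1 in the beta ring, and from -0.11 for RPT2 to 0.46 for RPN10 in the base. They ran from -0.26 for RPN8 to 0.28 for RPN6 in the lid and from -0.21 for NAS6 to 0.39 for NAS2 among the assembly factors. RPN4 itself differed by 0.07 ± 0.10 between the active and inactive forms (limma, adjusted p = 0.584).

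With IRAK1 set against IRAK4, 10 of the 40 genes rose and 4 fell, beside a background of 18.3% of all genes higher and 28.0% lower. These counts were 25% and 10% of the members. The median difference was 0.05, against -0.08 over all genes, and the range ran from -0.39 for RPN10 to 1.02 for ECM29. The count of 4 was 1 without IRAK1 replicate 2 and 2 without IRAK4 replicate 1 or IRAK1 replicate 3, and it was 0 in the fit of the 6 arrays of these groups alone. The arrays of IRAK1 all lay above those of IRAK4 in 12 genes and below in 7, against 17.9% and 28.4% of all genes.

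ECM29 had the widest gap, 1.02 ± 0.09 or 2.03-fold higher with IRAK1 (limma, adjusted p = 3.6e-07). RPN4 was higher by 0.75 ± 0.10 (limma, adjusted p = 2.01e-05) and BLM10 by 0.73 ± 0.08 (limma, adjusted p = 3.36e-06). The deubiquitinase pair followed, with RPN11 at 0.45 and RPN8 at 0.42, and so did the beta genes PRE1 at 0.43 and PRE3 at 0.40. These 7 genes kept their calls in every alternative except the fold limit. RPN10 went the other way, at -0.39 ± 0.09 (limma, adjusted p = 0.00254), as did ADD66 at -0.29, RPT3 at -0.24 and RPN6 at -0.24. The calls of these 4 ended in the fit of 6 arrays, which for RPN10 was the only alternative besides the fold limit that ended it. ADD66, RPT3 and RPN6 also lost theirs without IRAK1 replicate 2, RPT3 and RPN6 without IRAK4 replicate 1 or IRAK1 replicate 3, RPT3 without IRAK4 replicate 2 and RPN6 without IRAK4 replicate 3. By role, the differences ran from -0.02 for PRE5 to 0.25 for PRE8 in the alpha ring, from -0.12 for PRE2 to 0.43 for PRE1 in the beta ring, and from -0.39 for RPN10 to 0.23 for RPT1 in the base. The assembly factors ran from -0.29 for ADD66 to 0.11 for RPN14, and the lid from RPN6 to RPN11.

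For IRAK2 against IRAK1, 19 of the 40 genes fell and 1 rose, beside a background of 29.2% of all genes lower and 30.6% higher. The median difference was -0.21, against 0.01 over all genes. GAL1, whose promoter also drives the human genes, was lower with IRAK2 than with IRAK1 too, at -0.25 ± 0.07 (limma, adjusted p = 0.00616), a call that ended in the fit of the 6 arrays alone, and its part in the result was not tested. The IRAK2 arrays all lay below those of IRAK1 in 26 genes and above in 1, against 30.7% and 31.3% of all genes. Of the alpha genes 5 of 7 were lower, of the beta genes 5 of 7, of the base genes 4 of 10, of the lid genes 1 of 8 and of the assembly factors 1 of 5, as were BLM10, ECM29 and RPN4. The roles were not tested against each other. BLM10 fell by 1.01 ± 0.08 on the log2 scale (limma, adjusted p = 9.84e-08), RPN4 by 0.73 ± 0.10 (limma, adjusted p = 1.62e-05) and PUP1 by 0.65 ± 0.08 (limma, adjusted p = 6.28e-06). BLM10 read 10.15, 10.07 and 10.09 with IRAK2, against 11.18, 11.09 and 11.06 with IRAK1. The extremes were -0.49 for PRE6 and -0.05 for PRE9 in the alpha ring, -0.65 for PUP1 and -0.06 for PRE1 and PRE7 in the beta ring, and -0.52 for RPT5 and 0.04 for RPN2 in the base. They were -0.22 for RPN11 and 0.01 for RPN12 in the lid, and -0.26 for RPN14 and 0.24 for NAS6 among the assembly factors. Of the calls, 12 held in every alternative except the fold limit. The gene that rose, NAS6 at 0.24, lost its call without IRAK1 replicate 2, IRAK2 replicate 2 or IRAK2 replicate 3.

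**Figure D4:**
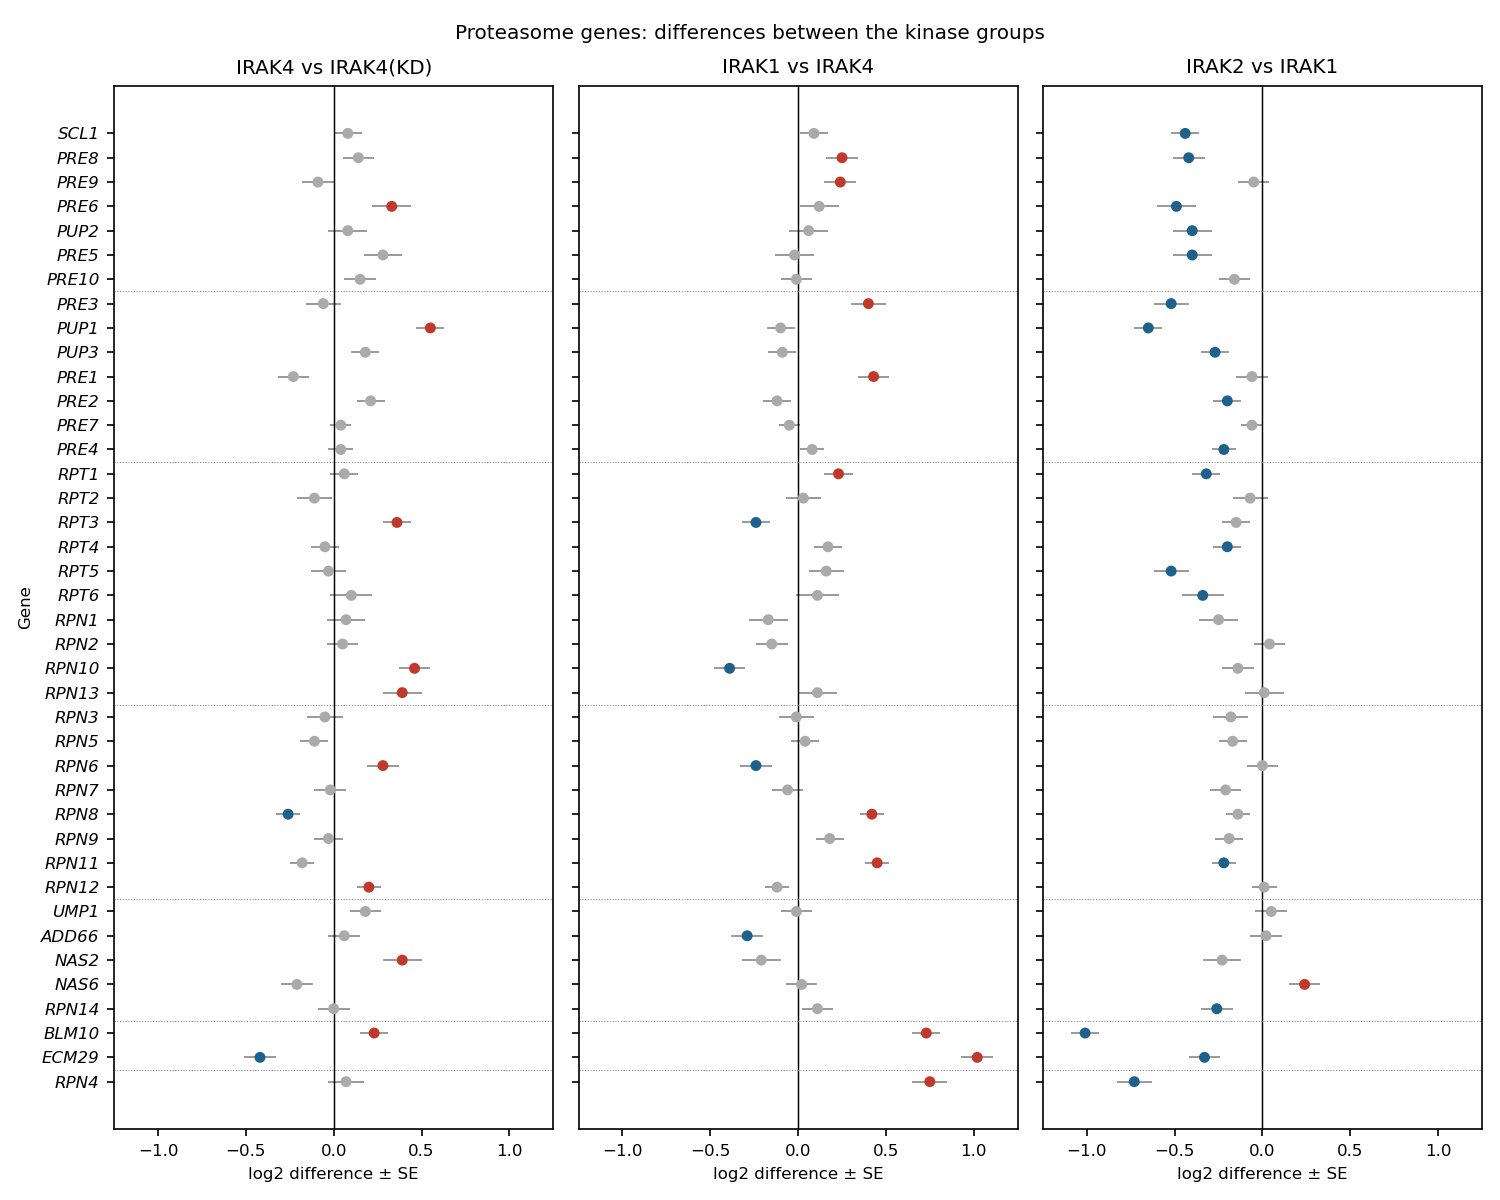
Log2 difference ± SE of the 40 proteasome genes in 3 direct comparisons, IRAK4 over IRAK4(KD), IRAK1 over IRAK4 and IRAK2 over IRAK1, with red points called higher, blue points called lower and grey points not called. ECM29 lies at -0.42 in the first and 1.02 in the second, and most points of the last lie below 0.

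Proteasome-related genes that the symbol rule does not take in were described from lists of 9 further proteasome genes, 24 genes of ubiquitin tagging and the segregase Cdc48, and 7 regulators of RPN4. Of the 9, 5 rose and 1 fell with IRAK1, 6 rose and 1 fell with IRAK4, 1 rose with IRAK4(KD), and 1 rose and 1 fell with IRAK2. Over all genes the shares called higher were 30.6% with IRAK1, 28.2% with IRAK4, 11.7% with IRAK4(KD) and 5.82% with IRAK2, so the IRAK4(KD) count, 11.1% of the list, was at the background. TMA17 (YDL110C), a chaperone of the base, read 11.92, 11.91 and 11.60 with IRAK1 and 11.17, 11.15 and 11.30 with IRAK4, against 10.46, 10.57 and 10.47 in Control. Both groups were clear of Control and of each other. TMA17 rose by 1.31 ± 0.09, or 2.48-fold, with IRAK1 (limma, adjusted p = 2.85e-08) and by 0.71 ± 0.09 with IRAK4 (limma, adjusted p = 2.04e-05), and was higher with IRAK4 than with IRAK4(KD) by 0.84 ± 0.09 (limma, adjusted p = 5.94e-06). With IRAK4(KD) it differed from Control by -0.13 and with IRAK2 by -0.30, the second called at an adjusted p of 0.0467 by limma and lost without any 1 of the Control, IRAK4(KD) or IRAK2 arrays or IRAK4 replicate 1 or 2. SPG5, a proteasome regulator of stationary phase, read 12.11, 12.22 and 12.16 with IRAK1, against 10.93, 10.95 and 10.97 in Control, and rose 2.33-fold there (limma, adjusted p = 1.83e-08). In the other 3 groups SPG5 lay within 0.10 of Control and was not called. IRC25, a core chaperone, rose in all 4 groups, at 0.46 with IRAK4, 0.48 with IRAK4(KD), 0.44 with IRAK1 and 0.68 with IRAK2. Its partner POC4 fell with IRAK1 by 0.54 ± 0.11 on the log2 scale (limma, adjusted p = 0.00106) and was not called in the other groups. SEM1, a small lid subunit, fell with IRAK4 by 0.73 ± 0.17 on the log2 scale (limma, adjusted p = 0.00397). With IRAK4(KD) it differed by -0.47 and was not called, but its arrays, at 10.59, 10.81 and 10.83, all lay below Control, at 11.17, 11.15 and 11.31. The IRAK1 arrays of SEM1, at 10.48, 10.78 and 11.37, overlapped Control. Those of IRAK2, at 11.78, 11.42 and 11.57, all lay above it, without a call.

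Among the 24 ubiquitin and Cdc48 genes 16 rose with IRAK1, 10 with IRAK4, 7 with IRAK4(KD) and 1 with IRAK2, with medians of 0.29, 0.23, 0.18 and 0.03. These counts were 66.7%, 41.7%, 29.2% and 4.17% of the list, against 30.6%, 28.2%, 11.7% and 5.82% of all genes, so the IRAK2 share was below the background. By limma 0 fell in any of these comparisons, and at an unadjusted p below 0.05 2 were lower with IRAK4(KD) and 0 in each of the others. DOA4, which recovers ubiquitin at the proteasome and the endosome, differed by 0.84 with IRAK4, 0.51 with IRAK4(KD), 0.74 with IRAK1 and -0.14 with IRAK2, the last not called. UBI4, the stress-inducible polyubiquitin gene, rose with IRAK1 (0.85) and IRAK4 (0.64). NPL4, a cofactor of Cdc48, and UBC5, a ubiquitin-conjugating enzyme, rose with IRAK1, by 0.88 ± 0.11 and 0.87 ± 0.07 (limma, adjusted p of 1.29e-05 and 2.73e-07), and were not called with IRAK4, at 0.27 and -0.12. HRD1, a ubiquitin ligase of the endoplasmic reticulum, rose with IRAK4 (0.76), IRAK4(KD) (0.27) and IRAK1 (0.49), the IRAK4(KD) call ending without any 1 of the Control or IRAK4(KD) arrays. Between IRAK4 and IRAK4(KD) 8 of the 24 rose and 1 fell, beside 19.7% and 15.3% of all genes, and between IRAK2 and IRAK1 14 fell, beside 29.2% of all genes.

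Of the 7 regulators of RPN4, which are transcription factors that induce the gene and enzymes that mark its product for destruction, 4 rose with IRAK1, 2 with IRAK4 and 0 with IRAK4(KD) or IRAK2 by limma. The IRAK1 count was 57.1% of the list, against 30.6% of all genes, and the IRAK4 count, 28.6% of the list, was at the background of 28.2%. At an unadjusted p below 0.05, 1 was higher and 1 lower with IRAK4(KD), and with IRAK2 the counts were 0 and 0. With IRAK1 the activators PDR3 and YAP1 rose by 0.66 and 0.61, and so did UBR2 and MUB1, components of the ubiquitin ligase that acts on the Rpn4 protein, by 0.69 and 0.32. PDR3 also rose with IRAK4, by 0.55, together with the heat shock factor gene HSF1, by 0.21, whose call ended after median centring or quantile normalization and without Control replicate 1 or 3 or IRAK4 replicate 2 or 3.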

How the data were processed

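RNA of 15 yeast cultures was hybridised to Affymetrix arrays. The deposited values are log2 signals that the authors made with GCRMA, per the submitters' processing notes; its version is not given in the sources used here. Of 5716 probe sets, 5498 had 1 gene in the platform annotation. The other 218, which had no gene or more than 1, were left out. The probe set with the highest mean was kept for the 47 genes with several, leaving 5449 genes, and 12 symbols were updated through Entrez IDs. limma 3.58.1 in R 4.3.3 fitted 5 group means over all 15 arrays, with 7 two-sided comparisons and Benjamini-Hochberg adjustment over all genes. Errors beside differences are its standard errors.

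All 40 genes could be named whatever their values, and each role group is given with its highest and lowest difference in each comparison. The genes named from the 3 outside lists and those described in more detail were picked with their values known. The members and lists were chosen with earlier results of these data known. Deviations of same-numbered arrays correlated at 0.19, 0.10 and 0.35 between IRAK1 and Control, so a block was also tried within these groups. No other comparison met the rule for this. Whether same-numbered arrays share a day or batch is not given in the sources used here, and the main fit had no block. The planned motif search of promoters was not run because no sequence table was available to it. The precision is limited by 3 arrays a group.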

Additional observations from a re-analysis of the deposited data

How the results depend on the processing

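Under 24 other settings, 15 of which left out 1 array, and 1 more chosen after seeing the data, no called difference changed sign. With 1 array left out, the count of proteasome genes higher ranged from 22 to 31 for IRAK4 against Control (lower 1 to 2), 5 to 23 for IRAK4(KD), 31 to 36 for IRAK1 and 0 to 12 for IRAK2, and the medians from 0.28 to 0.39, 0.20 to 0.24, 0.36 to 0.44 and 0.13 to 0.22. The same ranges were 4 to 12 higher and 2 to 4 lower (median 0.00 to 0.10) for IRAK4 against IRAK4(KD), 7 to 12 and 1 to 5 (0.01 to 0.10) for IRAK1 against IRAK4, and 0 to 1 and 14 to 22 (-0.24 to -0.15) for IRAK2 against IRAK1. Median centring gave 2 lower and a median of 0.26 for IRAK4 against Control and 5 lower against IRAK4(KD). Quantile normalization gave 2 lower for IRAK4, a median of 0.16 for IRAK4(KD) and -0.13 for IRAK2 against IRAK1. Array weights, whose estimation did not reach its tolerance, gave 2 lower for IRAK4, 27 higher and 1 lower for IRAK4(KD), 22 higher and 2 lower for IRAK2, and 5 lower for IRAK4 against IRAK4(KD). Calls over all genes rose under these weights too. Those higher went from 640 to 1760 for IRAK4(KD) and from 317 to 1378 for IRAK2. Those lower went from 893 to 1561 for IRAK4 and from 327 to 923 for IRAK4(KD). They went from 184 to 1213 for IRAK2 and from 833 to 1520 for IRAK4 against IRAK4(KD). Fits of the 6 arrays compared gave 13 higher for IRAK2 against Control, 0 lower for IRAK1 against IRAK4 and 0 higher for IRAK2 against IRAK1. Over all genes these fits moved the count higher from 317 to 786 for IRAK2 against Control. The count lower went from 1525 to 863 for IRAK1 against IRAK4. The count higher went from 1667 to 1275 for IRAK2 against IRAK1. A fold limit of 1.5, which by construction removes small changes, left 1 higher and 0 lower for IRAK4, 0 for IRAK4(KD), 6 for IRAK1, 0 for IRAK2, 0 and 0 for IRAK4 against IRAK4(KD), 3 and 0 for IRAK1 against IRAK4, and 0 and 3 for IRAK2 against IRAK1. Over all 5449 genes the limit left 590 higher and 317 lower for IRAK4 and 92 and 149 for IRAK4(KD). It left 812 and 679 for IRAK1 and 66 and 48 for IRAK2. Between kinase groups it left 398 and 210 for IRAK4 against IRAK4(KD), and 480 and 517 for IRAK1 against IRAK4. For IRAK2 against IRAK1 it left 777 and 818. Under this limit the members thus stood near or below the share of all genes. The replicate block over all arrays gave 5 higher for IRAK2 and 35 for IRAK1, and the block within the 6 arrays of IRAK1 and Control gave 27. The labels give no more than the shared replicate number. Except where a construction is named, the cause was not tested. Over all genes, the share of higher among calls was 63.3% for IRAK4 and 66.2% for IRAK4(KD), 52.4% and 55.9% after centring, and 51.0% and 54.7% after quantile normalization. For IRAK1 it was 52.0%, with 48.4% after centring and 45.3% after quantile normalization. Under the fold limit the IRAK4(KD) calls turned to 92 higher and 149 lower, 38.2% higher.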
